A study of Mus musculus with 4 samples.

Results

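Conventional type 1 dendritic cells (cDC1s) from mouse melanomas were described across 4 treatment groups. Cells were taken as cDC1s when a barcode had at least 300 genes and at most 10% mitochondrial transcripts, at least 1 unique molecular identifier (UMI, a count of 1 captured transcript) of both Xcr1 and Clec9a, no CD3 UMI (Cd3d, Cd3e, Cd3g), fewer than 10 UMIs of C1qa, C1qb and C1qc, and fewer than 2 of Fscn1. This rule found 234 cells among 35411 filtered barcodes and 36694 barcodes in all. Xcr1 (ENSMUSG00000060509, GRCm38 chromosome 9, 123852315 to 123862029) encodes a chemokine receptor, and Clec9a (ENSMUSG00000046080, chromosome 6, 129408862 to 129424763) a receptor for exposed actin of dead cells. The rule used measured values, so the levels of its own genes are a description and not a finding.

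cDC1s take up dying cells and load peptides of their proteins onto MHC class I, a step called cross-presentation, which lets them prime CD8 T cells against tumour antigens. Their development depends on the transcription factors Irf8, Batf3, Id2 and Nfil3, and they are sustained by the cytokine receptor Flt3. In tumours they are also known as a source of interleukin 12 and of the chemokines Cxcl9 and Cxcl10, which recruit T cells carrying Cxcr3.

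All mice carried tumours of B16-F10, a transplantable melanoma line. They were treated on days 8 and 11 after inoculation and the tumours were taken on day 14. The control group received dilution buffer into the tumour and intravenous IgG. In the CD40 group an antibody to CD40, the costimulatory receptor through which dendritic cells are licensed, went into the tumour. In the PD1 group an antibody to PD1, a brake on T cells, was given intravenously, and the combination group had both antibodies. The sources used here do not give the mouse strain, sex or age. Live CD45+ cells (leukocytes) of 6 mice were pooled into 1 library of 5′ single-cell RNA sequencing per group. The CD45 sort recovers leukocytes, although the labels give melanoma as the cell type. With 1 library per group there was no spread between replicates, no difference between groups was tested, and every interval below is a 95% interval of counting error alone.

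The libraries held 8132 to 10158 barcodes and 117735875 to 164755549 UMIs, of which 7847 (control), 7906 (CD40), 9938 (PD1) and 9720 (combination) barcodes passed the filter. The median filtered barcode had 11492, 14833, 11897 and 13369.5 UMIs in that order. Pairs of libraries shared 94 to 144 barcode sequences, none of them a cDC1-gated cell in both. Scrublet, a doublet caller, had automatic thresholds that marked 1, 0, 0 and 274 barcodes, so its calls were not used. At a score of 0.25 it marked 2 of the 234 cells.

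cDC1-gated cells were almost missing from both libraries that had received CD40 antibody. They numbered 138 in the control library, 2 in the CD40 library, 91 in the PD1 library and 3 in the combination library. As a share of filtered barcodes these were 1.76% (1.48 to 2.07%, exact Clopper-Pearson), 0.0253% (0.00306 to 0.0914%), 0.916% (0.738 to 1.12%) and 0.0309% (0.00637 to 0.0902%). The control and PD1 intervals did not overlap those of the CD40 and combination libraries. The CD40 share was 69.5-fold below the control share, a log2 ratio of -6.12 (-9.18 to -4.24, exact conditional interval). The combination share lay 29.7-fold below the PD1 share, a log2 ratio of -4.89 (-7.20 to -3.30), which became -2.63 without the C1q and CD3 limits. The PD1 share was 1.92-fold lower than the control share (1.46 to 2.53-fold). Combination and CD40 could not be separated by the rule at this depth, with a log2 ratio of 0.29 (-2.84 to 3.87). Without the C1q and CD3 limits that ratio was 1.77 (0.33 to 3.54), from 21 and 5 cells. A share of sorted cells does not give the number of cells in a tumour, and the same shares can arise when other leukocytes become more frequent. Low counts in the CD40 and combination libraries were not particular to cDC1s. Cd209a+ Clec10a+ dendritic cells, defined below, numbered 190 (control), 6 (CD40), 138 (PD1) and 0 (combination). Mature dendritic cells, also defined below, numbered 154, 27, 50 and 21 in that order.

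**Figure D1:**
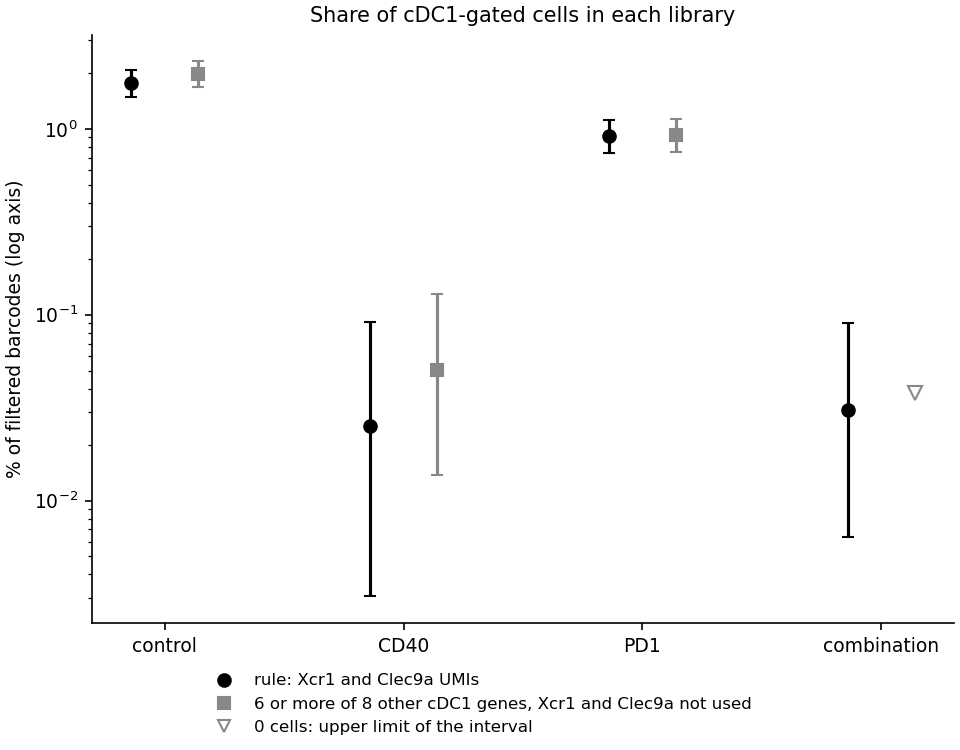
Share of filtered barcodes (%, log axis) that were cDC1-gated in each library, by the rule (black circles) and by a gate on 8 other cDC1 genes that uses neither Xcr1 nor Clec9a (grey squares), with exact 95% intervals. The control and PD1 libraries lay at 1.76% and 0.916% by the rule, and the CD40 and combination libraries at 0.0253% and 0.0309%. The open triangle is the upper limit for 0 cells.

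Control and PD1 also lay far above CD40 and combination without the rule's 2 genes. A second gate asked for a UMI of at least 6 of Flt3, Snx22, Naaa, Wdfy4, Gcsam, Cadm1, Batf3 and Ifi205, with the same CD3, C1q and Fscn1 limits. It was added after the data were seen, and held 155 (control), 4 (CD40), 92 (PD1) and 0 (combination) cells. The shares were 1.98% (1.68 to 2.31%), 0.0506% (0.0138 to 0.129%) and 0.926% (0.747 to 1.13%) in the first 3 libraries, and a count of 0 allowed up to 0.0379% in the combination library. At least 5 of the 8 genes gave 234, 19, 169 and 15 cells, and at least 4 gave 514, 211, 635 and 228. At that loosest setting the log2 ratio of shares fell in size to -1.30 for CD40 against control and to -1.45 for combination against PD1. For PD1 against control it was -0.036 (-0.206 to 0.135), so these 2 shares did not differ there beyond counting error. All 8 genes were present in 69, 0, 30 and 0 cells.

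In total 182, 6, 134 and 21 filtered barcodes had both Xcr1 and Clec9a, and the other limits of the rule kept 75.8%, 33.3%, 67.9% and 14.3% of them. The C1q limit removed 18, 4, 27 and 17 of them and the CD3 limit 29, 2, 19 and 4, some removed by both. Removed barcodes were deep, with medians of 34764, 54913.5, 38789 and 44101.5 UMIs, and 33, 0, 23 and 0 of them had 6 or more of the 8 genes. Just inside the marker threshold, 14, 0, 17 and 1 cells had exactly 1 Xcr1 UMI and 6, 0, 3 and 1 had exactly 1 Clec9a UMI. Just outside it, 173, 64, 403 and 93 cells had Clec9a but no Xcr1, and 6, 2, 11 and 4 had Xcr1 but no Clec9a.

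Transcripts of the marker genes outside the gate were also counted. Over all filtered barcodes Xcr1 had 1545 UMIs in the control library, 70 with CD40, 1227 with PD1 and 105 with the combination. The gate held 81.0%, 32.9%, 70.4% and 6.67% of them. Clec9a had 2552, 412, 3092 and 690 UMIs, of which the gate held 56.9%, 4.13%, 31.2% and 2.03%. Cells with at least 10 C1q UMIs and no CD3 held 11.4%, 50.5%, 23.2% and 48.0% of the Clec9a UMIs. Among T cells (at least 2 CD3 UMIs), 0.465% to 1.19% had an Xcr1 UMI.

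The label held for the control and PD1 cells. At least 6 of the 8 other genes were present in 127 of 138 and 77 of 91 of them. The summed level of 20 cDC1 identity genes outside the rule was 10214 and 10005 CPM (UMIs of a gene per 1000000 UMIs of the gate). It was 1608 and 1603 CPM in Cd209a+ Clec10a+ cells (at least 1 UMI of both genes and none of Xcr1 or Clec9a, with the rule's other limits), which are dendritic cells of the cDC2 kind, and 2472 and 2874 CPM in mature Ccr7+ Fscn1+ dendritic cells (at least 1 Ccr7 and 2 Fscn1 UMIs, with the same CD3 and C1q limits). Cst3 and Cd74, a secreted protease inhibitor and the MHC class II invariant chain, had the most UMIs among the gated cells of both libraries. T cell markers summed to 3.04 and 12.6 CPM, with Trac and Cd8b1 at 0 in the control and Trbc1 and Cd4 at 0 in the PD1 cells. B cell markers summed to 1.52 and 16.2 CPM, and the 10 macrophage and monocyte markers to 1085 and 1320 CPM, with all 10 detected. Median depth was 27862.5 and 26676 UMIs per cell, above that of the filtered barcodes.

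The 5 cells of the CD40 and combination libraries were mixed, and only 1 of them carried 6 or more of the 8 genes. That cell, of the CD40 library, had 17 Xcr1, 9 Clec9a, 24 Flt3, 65 Naaa and 35 Irf8 UMIs among 22051, and 43 UMIs of the division gene Mki67. The other CD40 cell had 6 Xcr1 and 8 Clec9a UMIs among 40047, no Flt3 and 343 UMIs of the myeloid lysozyme gene Lyz2. In the combination library, 1 cell had 1 UMI of each rule gene, 335 of Lyz2 and 61 of the monocyte gene Ly6c2. Another had 2 Xcr1 and 10 Clec9a UMIs, 97 of Ifi205 and 19 of Cd40. The last had 4 Xcr1 and 3 Clec9a UMIs and 34 of the migration receptor gene Ccr7. Macrophage and monocyte markers summed to 5636 CPM in the CD40 and 6553 CPM in the combination cells. These 5 cells are called by the rule only, and their gene levels were compared with no other treatment group. They entered the comparison with other dendritic cells below only in the alternative setting that used all 4 libraries.

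To describe what sets cDC1s apart, UMIs were summed per library and gate in the control and PD1 libraries for cDC1-gated cells (138 and 91), Cd209a+ Clec10a+ cells (190 and 138) and mature cells (154 and 50). The sums were tested with edgeR's quasi-likelihood test with the library as a block and Benjamini-Hochberg adjustment, leaving out the genes that defined any gate. Its p-values rest on 2 libraries and 2 residual degrees of freedom, and measure only the spread between them. Of 10323 genes tested, 25.6% passed an adjusted p of 0.05 against Cd209a+ Clec10a+ cells, 12.2% higher and 13.3% lower in cDC1s. Against mature cells 47.6% passed, 24.5% higher and 23.1% lower. DESeq2, another count model, called 1356 genes against Cd209a+ Clec10a+ cells where edgeR called 2638, and 3323 against mature cells where edgeR called 4910. In all, 792 genes were higher and 585 lower in cDC1s against both. Since the gates were chosen to hold different dendritic cells, the counts for the identity genes below describe the gate.

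Transcription factors of the lineage did not behave alike. Irf8 (ENSMUSG00000041515, chromosome 8, 120736358 to 120756694) stood at 2029 CPM in control and 1886 in PD1 cDC1s, at 158 and 289.9 in Cd209a+ Clec10a+ cells and at 647 and 1257 in mature cells. Its log2 fold change was 3.25 (SE 0.25, edgeR adjusted p = 2.78e-05) against the first and 0.97 (SE 0.24, edgeR adjusted p = 0.00744) against the second. Over 8 alternative settings the first call was lost in 1 (adjusted p from 7.66e-112 to 0.133). The second call was lost in 2 (adjusted p from 4.16e-14 to 0.840). Here and below, 1 of the 8 settings, at least 5 cells per gate, kept the same 2 libraries. It repeats the main fit and could lose no call. Batf3 (ENSMUSG00000026630, chromosome 1, 191097847 to 191108945) lay at 218 and 214 CPM in cDC1s, 61.2 and 58.5 in Cd209a+ Clec10a+ cells and 248 and 216 in mature cells. It was higher in cDC1s than in Cd209a+ Clec10a+ cells, by 1.87 (SE 0.13, edgeR adjusted p = 1.49e-05), a call lost in 1 of 8 settings. It was not called against mature cells, at -0.29 (SE 0.12, edgeR adjusted p = 0.0828). Id2 was higher against both, by 2.27 and 0.36, the latter lost in 2 of 8 settings (adjusted p from 0.00647 to 0.381). Nfil3, needed for cDC1 precursors, was the exception, at 13.7 and 17.5 CPM in cDC1s. It was lower than in both other gates, by log2 fold changes of -1.65 (lost in 1 of 8 settings) and -3.71.

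Surface receptors and adhesion molecules gave some of the widest gaps. Itgae (ENSMUSG00000005947, chromosome 11, 73090583 to 73147446), which encodes the integrin CD103, stood at 378 and 226 CPM in cDC1s and at no more than 5.27 CPM in either other gate, with log2 fold changes of 6.10 (SE 0.20, edgeR adjusted p = 1.23e-06) and 6.20 (SE 0.24, edgeR adjusted p = 1.82e-07). Cadm1, an adhesion molecule, was higher by 5.84 and 4.23, and the inhibitory receptor gene Btla by 2.68 and 1.71. Flt3, named as a marker of these cells, was 1.81 higher than in Cd209a+ Clec10a+ cells and lower than in mature cells, at -0.40 (SE 0.13, edgeR adjusted p = 0.0248). The latter call was lost in 4 of 8 alternative settings (adjusted p from 0.0173 to 0.715) and the former in 1. In CPM it read 272 and 216 in cDC1s, 74.7 and 66.1 in Cd209a+ Clec10a+ cells and 301 and 269 in mature cells. The last marker, Snx22, read 86.3 and 66.6 CPM in cDC1s and at most 2.93 CPM elsewhere. Gcsam stood at 154 and 153 CPM in cDC1s, and at 0 in control and 0.472 in PD1 Cd209a+ Clec10a+ cells. With the 0 set to 3 UMIs, that is a log2 ratio of at least 7.45 in the control library. Over the identity list, 19 of 20 genes were higher and 1 (Nfil3) lower against Cd209a+ Clec10a+ cells, with a median log2 fold change of 3.20, where the median of all genes tested was 0.02. Against mature cells 17 were higher, 2 lower and 1 not called, with a median of 4.49 against 0.04 over all genes. The shares of all genes tested were 12.2% higher and 13.3% lower against Cd209a+ Clec10a+ cells, and 24.5% and 23.1% against mature cells.

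**Figure D2:**
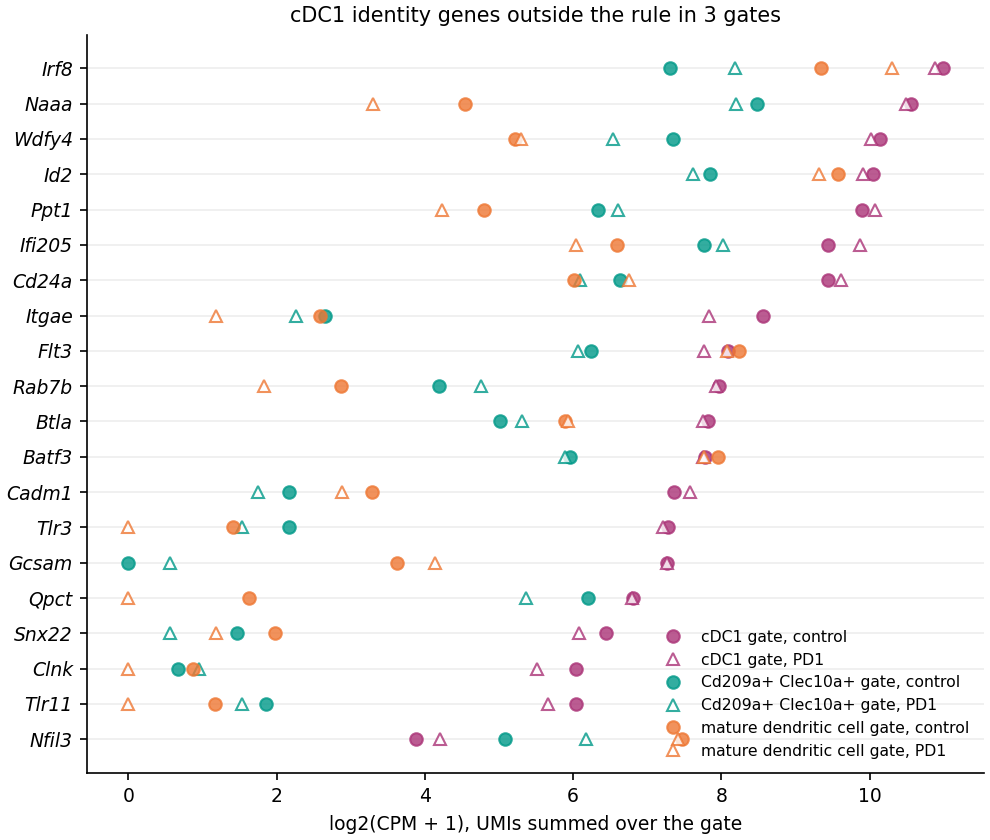
Level of the 20 cDC1 identity genes outside the rule, as log2(CPM + 1) of UMIs summed over cDC1-gated, Cd209a+ Clec10a+ and mature dendritic cells of the control (filled circles) and PD1 (open triangles) libraries. Flt3 and Batf3 overlap with mature cells, Nfil3 lies below both other gates, and Itgae, Cadm1, Tlr3, Snx22 and Clnk lie far above them.

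Genes of cross-presentation were split. Wdfy4, a protein required for cross-presentation of cell-borne antigen, stood at 1126 and 1034 CPM in cDC1s, 162 and 92.1 in Cd209a+ Clec10a+ cells and 36.0 and 38.1 in mature cells, with log2 fold changes of 3.13 and 4.76. Rab43, a vesicle GTPase with a role in cross-presentation, was higher by 1.62 and 1.21. Cybb, the oxidase subunit that limits acidification of phagosomes, was lower, at 27.6 and 49.9 CPM against 283 and 382 in Cd209a+ Clec10a+ cells (log2 fold change -3.12, SE 0.17, edgeR adjusted p = 3.14e-06). Of 13 genes in this list, 3 were higher, 4 lower and 6 not called against Cd209a+ Clec10a+ cells, and 2 were higher, 8 lower and 3 not called against mature cells. Among all genes 12.2% were higher and 13.3% lower against the first, and 24.5% and 23.1% against the second. Lysosomal enzyme genes of the identity list were also high, Naaa, an amide hydrolase, by 2.21 and 6.22, and Ppt1, a thioesterase, by 3.55 and 5.19.

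MHC class I presentation genes were 7 higher, 2 lower and 7 not called of 16 against Cd209a+ Clec10a+ cells, and 2 higher, 10 lower and 4 not called against mature cells. The immunoproteasome gene Psmb9 (843 and 916 CPM in cDC1s) was 1.21 higher than in Cd209a+ Clec10a+ cells (lost in 1 of 8 settings). Tap1, a peptide transporter subunit, was 0.62 higher (lost in 2 of 8 settings). H2-K1, a classical heavy chain, was not called against the first, at -0.10, and was lower than in mature cells, at -1.40. MHC class II presentation differed the other way. Only 1 of 11 genes was higher and 1 lower against Cd209a+ Clec10a+ cells, while 9 were higher and 1 lower against mature cells. Over all genes 12.2% were higher and 13.3% lower against the first, and 24.5% and 23.1% against the second. The class II counts against Cd209a+ Clec10a+ cells were thus near the share of all genes. H2-DMb1, which loads peptide onto class II, stood at 1029 and 1063 CPM in cDC1s and 65.3 and 49.6 in mature cells, a log2 fold change of 3.96 (SE 0.15, edgeR adjusted p = 1.90e-07). Ciita, the class II transactivator, was 1.90 higher than in mature cells.

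Sensors of microbes and nucleic acids included the receptors for which cDC1s are known. Tlr3, which binds double-stranded RNA, stood at 154 and 147 CPM in cDC1s, 3.51 and 1.89 in Cd209a+ Clec10a+ cells, and 1.68 and 0 in mature cells. Tlr11, a receptor for a protozoan profilin, stood at 64.8 and 49.5 CPM in cDC1s and at most 2.63 CPM in the others. Ddx58, which encodes the cytosolic RNA sensor RIG-I, was lower, at 4.05 and 8.53 CPM against 50.4 and 57.6 in Cd209a+ Clec10a+ cells (log2 fold change -3.16, SE 0.25, edgeR adjusted p = 3.20e-05). The list counted 4 higher, 3 lower and 5 not called against Cd209a+ Clec10a+ cells and 6 higher, 2 lower and 4 not called against mature cells. The shares over all genes were 12.2% higher and 13.3% lower against the first, and 24.5% and 23.1% against the second.

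None of the CD40 and NF-kB signalling genes was higher in cDC1s than in either other gate, while the maturation and costimulation list was split against Cd209a+ Clec10a+ cells, with 4 higher, 3 lower and 9 not called. Against mature cells 15 of 16 maturation genes tested were lower and 1 was not called, and 15 of 16 CD40 and NF-kB signalling genes were lower and 1 was not called. For these lists and the checkpoint genes below, the shares over all genes were 12.2% higher and 13.3% lower against Cd209a+ Clec10a+ cells. Against mature cells they were 24.5% and 23.1%. Because mature cells were chosen by Ccr7 and Fscn1, a lower maturation list describes that choice. The receptor gene Cd40 read 48.6 and 86.5 CPM in cDC1s, 86.7 and 141 in Cd209a+ Clec10a+ cells and 355 and 252 in mature cells. It was lower than in mature cells by a log2 fold change of -2.46 (SE 0.28, edgeR adjusted p = 8.26e-05) and not called against Cd209a+ Clec10a+ cells, at -0.75 (SE 0.28, edgeR adjusted p = 0.0785). In 2 of 8 alternative settings Cd40 was called lower than in Cd209a+ Clec10a+ cells too (adjusted p from 2.12e-05 to 0.573). Relb and Traf1, an NF-kB subunit and a receptor adaptor, were lower than in mature cells by -4.01 and -3.50. Against Cd209a+ Clec10a+ cells 8 of the 16 CD40 and NF-kB genes were lower and 8 not called. The costimulatory gene Cd86 had log2 fold changes of 0.77 against Cd209a+ Clec10a+ cells, a call lost in 2 of 8 settings, and -0.94 against mature cells, lost in 1 of 8. Of the 8 checkpoint genes tested, 1 was higher, 4 lower and 3 not called against Cd209a+ Clec10a+ cells, and 3 were higher and 5 lower against mature cells, with median log2 fold changes of -0.38 and -2.06. Havcr2, which encodes the receptor TIM-3, was higher against both, by 1.90 and 3.05.

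Chemokine receptors also differed. Cxcr3, the receptor for Cxcl9 and Cxcl10, stood at 80.2 and 84.5 CPM in cDC1s and at no more than 3.78 CPM in either other gate, with log2 fold changes of 4.58 (SE 0.24, edgeR adjusted p = 3.14e-06) and 4.37 (SE 0.28, edgeR adjusted p = 2.26e-06). Ccr2, a receptor for monocyte chemokines, was lower than in Cd209a+ Clec10a+ cells (-1.04, lost in 1 of 8 settings) and higher than in mature cells (2.74). The growth factor receptor gene Kit was 1.83 and 1.06 higher.

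More cDC1s carried division transcripts than other dendritic cells. All 16 proliferation genes were higher against both gates, with median log2 fold changes of 1.53 and 2.34. Of all genes tested, 12.2% were higher against Cd209a+ Clec10a+ cells and 24.5% against mature cells, with medians of 0.02 and 0.04. Mki67, expressed in cycling cells, stood at 197 and 199 CPM in cDC1s, 67.0 and 32.6 in Cd209a+ Clec10a+ cells and 23.5 and 2.54 in mature cells. The call against Cd209a+ Clec10a+ cells was lost in 2 of 8 settings (adjusted p from 1.94e-33 to 0.112). Rrm2, a subunit of ribonucleotide reductase, was 1.84 and 5.40 higher, each call lost in 1 of 8 settings. With every cell thinned to 10000 UMIs, 40.8% of control cDC1s (32.2 to 49.7%, 53 of 130 cells) and 34.9% of PD1 cDC1s (24.8 to 46.2%, 29 of 83) had at least 2 UMIs of 10 division genes. The shares were 15.03% and 10.9% in Cd209a+ Clec10a+ cells and 11.1% and 9.30% in mature cells. Unthinned shares were 53.6% and 42.9% in cDC1s, 16.8% and 11.6% in Cd209a+ Clec10a+ cells and 12.3% and 10.0% in mature cells. In T cells the thinned shares were 44.0% and 51.1%, from the 851 and 1312 deepest cells, with 1163 and 1125 shallower cells left out. Unthinned T cell shares were 29.6% and 38.6%, at median depths of 8249 and 11180 UMIs. Division transcripts alone do not show that a cell was dividing.

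The genes with the largest changes were chosen by fold, whether listed or not. Besides genes named above, Gpr141b, Plpp1, Clnk and Ccser1 were among the 10 furthest above Cd209a+ Clec10a+ cells. Plpp1, a lipid phosphatase gene, stood at 113 and 102 CPM against 0.586 and 0.944. Among the 10 furthest below, the lectin genes Cd209d and Cd209c stood at 0 and 0 and at 0.253 and 0 CPM in cDC1s, against 124 and 49.1 and 160.1 and 90.6 CPM. Cd209c and Cd209d are close relatives of Cd209a, which chose that gate, so their reads may be split between copies. Hspb1, Cdh1, Cyp7b1, Cd7, Tmem176a, Tmem176b, Clec4b1 and Ddr1 completed that group. Tmem176b, an endosomal membrane protein gene, read 6.33 and 14.2 CPM in cDC1s and 293 and 449 CPM in Cd209a+ Clec10a+ cells. Furthest above mature cells were also Pianp, Asb2, Qpct, F2rl2 and Ckb. Ckb, creatine kinase, read 1215 and 1016 CPM against 25.5 and 20.3. Furthest below them was the chemokine gene Ccl5 among others, at 5.57 and 13.0 CPM in cDC1s and 7641 and 4449.5 CPM in mature cells, together with Socs2, Cacnb3, Anxa3, Ramp3, Syn3, Tmem150c, Lad1, Nudt17 and Ankrd33b.

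cDC1s varied among themselves most in chemokine, interferon-linked and myeloid genes. With cells thinned to 10000 UMIs, the variance over the mean had a median of 1.20 in the control and 1.25 in the PD1 library over 2491 genes with a mean of at least 0.5 UMIs in both. It exceeded 2 in both libraries for 226 genes. Among the 10 highest were the interferon-induced gene Ifitm1, Cxcl9, Cxcl10, Lyz2 and the secreted phosphoprotein gene Spp1. Cxcl9 was absent from the median control cell and reached 52 UMIs in the highest, and had a median of 1 and a highest value of 48 UMIs in the PD1 cells. Cxcl10 had a median of 0 in both libraries and highest values of 57 and 42 UMIs.

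Interleukin 12 transcripts came from very few cells. Il12b, the shared subunit of interleukin 12 and 23, had 223 UMIs in the control cDC1s, present in 3 of 138 cells, with 219 UMIs in 1 cell. In the PD1 cDC1s it had 253 UMIs in 2 of 91 cells, with 243 in 1 cell. Both of these cells had Ccr7, at 125 and 96 UMIs, although Ccr7 was present in only 6 of 138 and 4 of 91 cDC1s. Il12b was at 0 in Cd209a+ Clec10a+ cells of both libraries, which places the cDC1 sum at least 6.01 and 6.18 above it on the log2 scale with the 0 set to 3 UMIs. In mature cells it stood at 204 and 313 CPM. The Il12b level of cDC1s in each library thus rested on 1 cell.

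The comparison of PD1 with control asked how cDC1s differed between these libraries under antibody to PD1. It has no test. At least 2 UMIs of both rule genes were present in 119 control and 72 PD1 cells. The other 19 control and 19 PD1 cells, with 1 UMI of either gene, are called low-marker cells. In the PD1 library the low-marker cells stood apart from the other cDC1s. They had 6 or more of the 8 cDC1 genes in 47.4% (control low-marker cells 73.7%, the others 94.96% and 94.4%), and Irf8 at 881 CPM beside 2083. The monocyte genes Ly6c2 and Fcgr1, an Fc receptor, stood at 639 and 264 CPM in them, beside 155 and 25.3 CPM in the other PD1 cells. In the control library Ly6c2 read 126 CPM in low-marker cells and 50.4 in the others, and Fcgr1 70.1 and 17.7. The part of these cells in each result was not tested, and the ratios below are given for all cells and without the low-marker cells.

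Interferon gamma response genes were higher in PD1 than in control cDC1s. Of 14 genes, 14 had a higher CPM in the PD1 library and 11 were past a log2 ratio of 1, where 3.79% of the 10968 genes with at least 10 UMIs were past it on the higher side and 3.27% on the lower. The median of the list was 1.25 and that of all genes 0.05. Without low-marker cells all 14 ratios were above 0 (0.00 to 2.00), the median was 0.95 and 6 genes were past 1, against 2.74% of all genes (3.29% past -1). Irf1, a transcription factor induced early by interferon gamma, went from 129 (118 to 141) to 264 (244 to 285) CPM, a log2 ratio of 1.03, and 0.96 without low-marker cells. The feedback inhibitor gene Socs1 differed by 0.89 and 0.79. The widest gap of the list was that of Gbp4, a GTPase gene, at 5.06 (3.09 to 7.82) and 31.3 (24.7 to 39.1) CPM, a log2 ratio of 2.63, and 2.00 without low-marker cells. Gbp2, another GTPase gene, read 75.2 (66.8 to 84.2) and 287 (266 to 309) CPM, a log2 ratio of 1.93 (1.73 to 2.13), and 1.08 without low-marker cells. Iigp1 differed by 1.77 and 1.41, Igtp by 1.49 and 1.18, and Gbp5 by 1.32 and 0.95.

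Cxcl9 (ENSMUSG00000029417, chromosome 5, 92321347 to 92328079) was at 233 (218 to 248) CPM in control and 488 (461 to 516) CPM in PD1 cDC1s. The log2 ratio was 1.07 (0.94 to 1.19), and 0.71 (0.57 to 0.86) without low-marker cells. In thinned cells without the low-marker ones, 31.9% of control and 58.2% of PD1 cells had a Cxcl9 UMI. In T cells, which should lack it, 9.64% and 19.1% did, also with the higher share in the PD1 library. Unthinned shares were 34.8% and 64.8% of cDC1s (median depth 27862.5 and 26676 UMIs) and 6.41% and 16.0% of T cells (8249 and 11180 UMIs). Ly6a, which encodes the surface protein Sca-1, was detected in 29.2% and 61.2% of thinned cells without the low-marker ones, and Gbp2 in 24.8% and 50.7%.

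**Figure D3:**
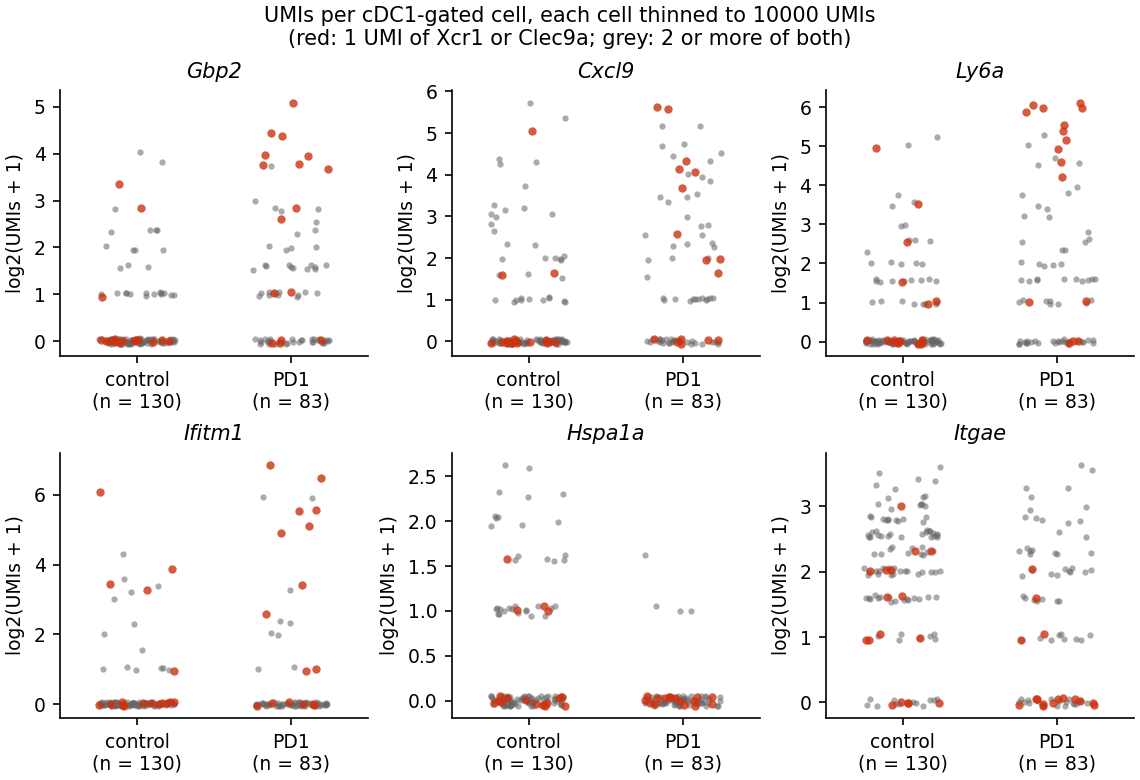
UMIs of 6 genes in every cDC1-gated cell of the control and PD1 libraries that had at least 10000 UMIs (130 and 83 cells), thinned to 10000 and drawn as log2(UMIs + 1). Red cells had 1 UMI of Xcr1 or of Clec9a and hold the highest PD1 values of Gbp2, Cxcl9, Ly6a and Ifitm1, while Hspa1a and Itgae were lower across the PD1 cells of both colours.

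The same list was read in the other gates of the same libraries, so these comparisons share their source. Its median log2 ratio of PD1 over control was 1.04 in Cd209a+ Clec10a+ cells (13 of 14 genes higher), 0.78 in mature cells (14 of 14), 1.48 in cells with at least 10 C1q UMIs (14 of 14) and 0.34 in T cells (13 of 14). The higher level was thus not confined to cDC1s in these libraries, and differences between gates were not tested. Ifng itself stood at 115 CPM in control and 404 CPM in PD1 T cells.

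**Figure D4:**
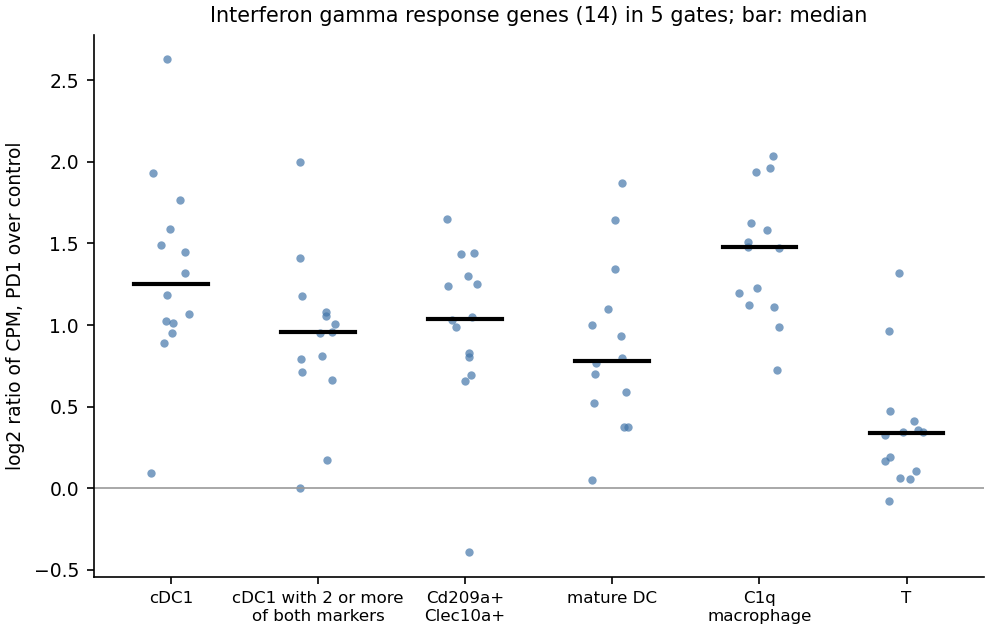
Log2 ratio of CPM, PD1 over control, for each of the 14 interferon gamma response genes (points) in cDC1-gated cells, in those with at least 2 UMIs of both rule genes, and in 4 other gates. Bars are medians, at 1.25, 0.95, 1.04, 0.78, 1.48 and 0.34 from left to right.

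The higher level of type I interferon response genes in PD1 cDC1s was mostly lost without the low-marker cells. Over all cDC1s, 12 of 13 genes were higher in PD1, 6 of them past a log2 ratio of 1, and the median was 0.90. Without low-marker cells 7 of 13 were higher, 1 was past 1 and 3 were past -1, and the median was 0.17. Among all genes 3.79% were past 1 and 3.27% past -1, and 2.74% and 3.29% without low-marker cells. Irf7, a transcription factor that amplifies the response, kept a ratio of 0.88 (1.22 over all cells) and Isg15, a ubiquitin-like modifier, 0.78 (1.30 over all cells). The antiviral gene Rsad2 went from -0.26 to -2.06. It rested on few cells, with 90 UMIs in 12 of 138 control and 47 in 8 of 91 PD1 cells. The highest control cell, with 24 UMIs, was not a low-marker cell, and the highest PD1 cell, with 21, was. After thinning, the 5 highest control cells held 100%, 93.3% and 92.9% of the Ifit1, Ifit2 and Ifit3 UMIs. In PD1 cells these values were 66.7%, 83.8% and 92.9%. In the other gates this list had medians of 0.36 (Cd209a+ Clec10a+), -0.27 (mature), 0.47 (C1q) and 0.11 (T cells).

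Presentation genes moved less. All 16 MHC class I genes had a higher CPM in PD1 cDC1s and the interval of each ratio lay above 0, as it did for 11.8% of all genes (6.76% lay below 0). The median was 0.28, and 0.22 without low-marker cells, again with 16 of 16 intervals above 0 (9.63% of all genes, with 6.56% below 0). H2-K1 read 1216 and 1529 CPM, a log2 ratio of 0.33 (0.27 to 0.39), and B2m, the light chain, 1188 and 1504 CPM, a ratio of 0.34. Without low-marker cells the 2 ratios were 0.18 and 0.22. The MHC class II list had a median of 0.05 and the cross-presentation list of 0.16, and neither had a gene past 1 in either direction. Without low-marker cells they stood at 0.02 and 0.04.

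Maturation, checkpoint and signalling lists shifted by little. The maturation list had a median of 0.32 (0.21 without low-marker cells), the CD40 and NF-kB list of 0.29 (0.16) and the checkpoint list of 0.38 (0.08). Cd40 itself read 48.6 (42.0 to 56.0) and 86.5 (75.3 to 98.9) CPM, a log2 ratio of 0.83, and 0.60 (0.27 to 0.93) without low-marker cells. Traf1, an adaptor of CD40 and other receptors, differed by 0.90 and 0.82. Cd274, which encodes the PD1 ligand PD-L1, read 46.6 and 77.6 CPM, a ratio of 0.74 (0.44 to 1.04), and 0.37 (-0.01 to 0.74) without low-marker cells, an interval that includes 0. The list of T cell cytokines and chemokines had a median of 0.86, and 0.31 without low-marker cells. Il12b read 56.4 and 103 CPM over all cells and 61.8 and 0 CPM without low-marker cells, since the single PD1 cell with most of its UMIs had 1 Xcr1 UMI.

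**Figure D5:**
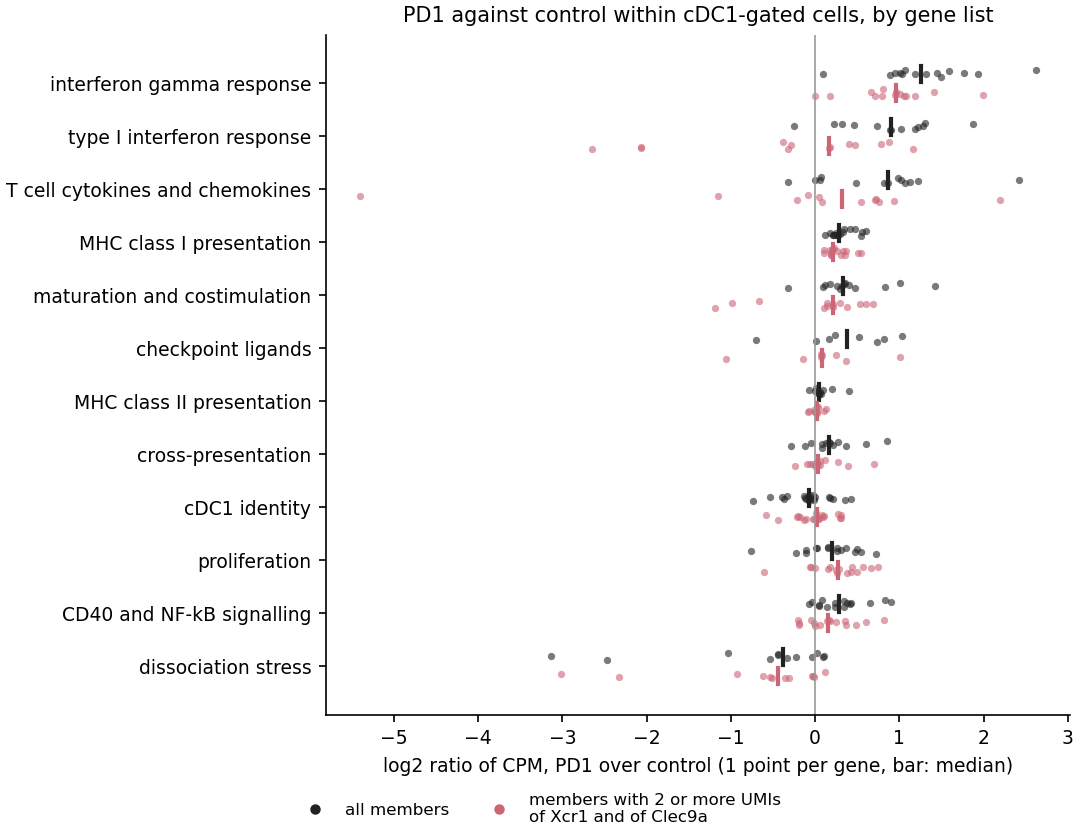
Log2 ratio of CPM, PD1 over control, within cDC1-gated cells for the genes of 12 lists (1 point per gene, bar at the median), for all cells (black) and for cells with at least 2 UMIs of both rule genes (red). The interferon gamma list lay at 1.25 and 0.95, the type I interferon list at 0.90 and 0.17, and the dissociation stress list at -0.38 and -0.44. The far left red point of the cytokine list is Il12b, with a count of 0 set to 3 UMIs.

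Identity genes differed by small ratios between the libraries, and over all cells 15 of 20 were lower in PD1. The list had a median of -0.07 (0.02 without low-marker cells) and no gene past 1. The interval lay below 0 for 9 genes (6.76% of all genes) and above 0 for 4 (11.8%). Without low-marker cells it lay below 0 for 4 (6.56%) and above 0 for 4 (9.63%). Irf8 read 2029 and 1886 CPM, a log2 ratio of -0.11, and 0.010 without low-marker cells. Wdfy4 and Naaa differed by -0.12 and -0.07, and by -0.03 and -0.02 without low-marker cells. Itgae was the widest exception: it read 378 (359 to 397) and 226 (208 to 246) CPM, a ratio of -0.74 (-0.88 to -0.60), and -0.58 (-0.72 to -0.43) without low-marker cells. It was detected in 89.4% and 71.6% of thinned cells without the low-marker ones. The proliferation list had a median of 0.20 (0.27 without low-marker cells), and Mki67 a ratio of 0.02 (0.18 without low-marker cells).

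Heat shock and immediate early genes were lower in PD1 cDC1s. The 12 genes of this dissociation stress list had a median of -0.38, with 3 higher and 3 past -1, and of -0.44 without low-marker cells, with 1 higher and 2 past -1. Of all genes 3.27% were past -1, and 3.29% without low-marker cells. Hspa1a, an inducible Hsp70 gene, stood at 60.5 CPM (53.1 to 68.6) in control and 6.90 CPM (4.02 to 11.1) in PD1 cells, a log2 ratio of -3.13, and -3.02 without low-marker cells. Its close copy Hspa1b read 51.9 and 9.34 CPM (-2.47, and -2.32 without low-marker cells), and reads may be split between these 2 genes. Hspa1a was detected in 30.1% and 5.97% of thinned cells without the low-marker ones. Fosb differed by -1.04 (-0.93 without low-marker cells) and Jun by -0.53 in both. In the other gates the list had medians of 0.25 (Cd209a+ Clec10a+), 0.13 (mature), 0.24 (C1q) and 0.17 (T cells), all of opposite sign, and Hspa1a itself had ratios of -0.04, -1.67, -0.21 and 1.57.

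Genes were also chosen, listed or not, by the bound of the PD1 to control ratio's interval nearest to no change, above minimum levels. On the higher side these were Ifitm1, Ly6a, Gbp2, Il1r2, Calhm6, Iigp1, Plac8, Ms4a4c, Ifi47 and Tgtp2. Plac8 went from 244 (229 to 259.8) to 778 (744 to 814) CPM, a log2 ratio of 1.67, and 1.55 without low-marker cells, where it was detected in 51.3% and 80.6% of thinned cells. Ly6a read 162 and 876 CPM, a ratio of 2.44, and 1.47 without low-marker cells. Ifitm1 read 96.4 and 614 CPM, with 2878 CPM in the PD1 low-marker cells, and its ratio went from 2.67 to 1.84 without them. It was then detected in 12.4% and 13.4% of thinned cells, so few cells set its level. Il1r2, a decoy receptor for interleukin 1, had a ratio of 2.07 that turned to -0.66 (-1.53 to 0.14) without low-marker cells, and Ms4a4c went from 1.85 to 0.23. Calhm6, Ifi47 and Tgtp2 lay at 2.09, 1.65 and 1.69, and at 1.38, 1.19 and 1.40 without low-marker cells.

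On the lower side were Hspa1a, Hspa1b, Sult1a1, Plet1, Serpinf1, Dapk1, AY036118, Lars2, Zc3h7a and Cmss1. They are not the lowest ratios: AY036118, Lars2, Zc3h7a and Cmss1 were not past -1, while 3.27% of all genes were. Plet1, a surface glycoprotein gene, read 184 (171 to 198) and 68.2 (58.3 to 79.3) CPM, a log2 ratio of -1.43, and -1.13 without low-marker cells. It was detected in 38.9% and 13.4% of thinned cells without the low-marker ones, beside 1.53% and 0.534% of T cells. Serpinf1, a secreted serpin gene, read 57.2 and 19.1 CPM (-1.58, and -1.56 without low-marker cells), with 46.9% and 16.4% of thinned cells positive beside 1.88% and 2.90% of T cells. Sult1a1, a sulfotransferase gene, read 50.1 and 14.6 CPM (-1.78, and -1.57 without low-marker cells), and Dapk1, a death-associated kinase gene, 107 and 51.6 CPM (-1.05, and -1.12 without low-marker cells). AY036118 and Cmss1 were lower in all 5 gates, with ratios in cDC1s of -0.80 and -0.67 (-0.76 and -0.67 without low-marker cells) and, in the other gates, of -0.87 to -0.43 and -0.73 to -0.16. Their values are therefore not particular to cDC1s.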

How the data were processed

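Per the labels' protocols, tumours of 6 mice per group were pressed through a filter, freed of red cells and sorted for live CD45+ cells, from which 10x 5′ libraries were made. The matrices hold UMI counts as deposited, unnormalized, for 32285 genes in each barcode. Per the submitters' processing notes, the authors used Cell Ranger 7.0.0 and the GRCm38 build. The annotation release and the counting of intronic reads are not stated in these sources, so overlapping genes cannot be told apart with certainty. Coordinates are from the GENCODE vM21 annotation of GRCm38, matched by Ensembl identifier.

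The cells, the gene lists and the tests were chosen with earlier results of these data known. Of 278 list genes, 276 were matched by symbol or a RefSeq synonym. UMIs were summed per library and gate and scaled to CPM. Shares have exact Clopper-Pearson intervals, CPM exact Poisson intervals and log2 ratios exact conditional binomial intervals, all at 95%. In ratios of CPM, a count under 3 was set to 3 and the interval used the count itself. In ratios of shares, only a count of 0 cells was set to 3. List medians used genes with at least 10 UMIs over both libraries. For shares of cells with a UMI, cells were thinned to 10000 UMIs and shallower cells left out (8 of 138 control and 8 of 91 PD1 cDC1s). No doublets were removed.

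Sums of 3 gates in 2 libraries were tested with edgeR 4.0.16 (R 4.3.3, TMM, filterByExpr, common dispersion) and a library block, and with DESeq2 1.42.0 as an alternative. The other gates took filtered barcodes by marker UMIs in the same way. Named genes were the 10 per direction with the largest ratio bound or fold change above minimum levels (50 CPM in the higher gate or library, 30 UMIs, and 0.2 times the highest other gate), besides list members. Mitochondrial, ribosomal, immunoglobulin, T cell receptor, sex-linked and predicted genes were left out of that choice. The scripts were tested on simulated data. Other tools were Python 3.11.15, numpy 2.4.6, scipy 1.17.1, pandas 2.3.3, scanpy 1.11.5 and matplotlib 3.10.9.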

Additional observations from a re-analysis of the deposited data

How the results depend on the processing

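The difference in share between libraries kept its direction under every alternative run for CD40 against control and combination against PD1. For PD1 against control it did so except with at least 4 of 8 other cDC1 genes in place of Xcr1 and Clec9a. That setting gave a log2 ratio of -0.036 (-0.206 to 0.135), an interval that includes 0. The same setting gave -1.30 for CD40 against control and -1.45 for combination against PD1. Without the C1q and CD3 limits it was -2.63 for combination against PD1. Combination against CD40 ranged from -0.71 to 1.77. The lowest value came from at least 6 of 8 other cDC1 genes, with a combination count of 0 cells set to 3. The highest came without the C1q and CD3 limits, and its interval (0.33 to 3.54) lay above 0. With at least 2 UMIs of Xcr1 and of Clec9a, the median of the interferon gamma response list was 0.95 and of the type I interferon response list 0.17, and 3 of the genes whose ratios the report gives changed sign: Il12b (-5.41, a PD1 count of 0 set to 3), Il1r2 (-0.66) and Irf8 (0.010). Cells with 1 UMI of either gene set these differences by construction, and the cause of the others was not tested. DESeq2 called 1356 genes against Cd209a+ Clec10a+ cells (586 higher, 770 lower) and 1554 higher against mature cells. With the gate sums of all 4 libraries, which include sums of 2, 3 and 6 cells, 607 genes differed from Cd209a+ Clec10a+ cells (319 higher, 288 lower) and 2241 from mature cells (1009 higher, 1232 lower), and Id2 against mature cells turned to -0.54. Of 89 calls of single genes against the other gates, 17 were lost in some alternative, 7 of them other than with all 4 libraries. Leaving out the control or the PD1 library left no residual degrees of freedom, so only ratios within 1 library were computed. No paired analysis was possible because each group had 1 library, and the library block in the comparison of gates stands in for it. Depth limits the CD40 and combination libraries most, where 2 and 3 cells gave 62098 and 79655 UMIs.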
